A study of Mus musculus with 6 samples.

Results

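The miR-132 and miR-212 cluster is a pair of microRNA hairpins that lie next to each other on mouse chromosome 11, and its 4 mature sequences were followed here in kidney. They were selected by name, as mmu-miR-212-3p, mmu-miR-212-5p, mmu-miR-132-5p and mmu-miR-132-3p (written below without the species prefix), from the 1542 mature sequences in the count table. MicroRNAs (miRNAs) are short RNAs that pair with messenger RNAs and lower their output. The study sequenced small RNA from kidneys of female mice at 17 weeks of age, with 3 libraries from MRL/lpr mice and 3 from C57BL/6 mice. MRL/lpr mice (MRL/MpJ-Fas<lpr>/J) carry the lpr mutation of the death receptor gene Fas on the MRL background and develop a lupus-like disease with nephritis. C57BL/6 mice served as wild-type controls, so the strains differ in background genes, the lpr mutation and disease at once, and these cannot be told apart. The labels name no separate animal for each library, so a p-value here reflects spread among samples that may be technical.

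Both hairpins are cut from one primary transcript. Its promoter responds to CREB, a transcription factor that is switched on by cyclic AMP, calcium and growth factor signals, and the cluster is best known for its induction in active neurons. It is also induced in stimulated monocytes and macrophages and by angiotensin II in the heart and vessels, and miR-132 has been linked to myofibroblasts and fibrosis in injured mouse kidneys. Known targets of the family include the mRNAs for the GTPase-activating proteins Rasa1 and p250GAP and for Foxo3. The 3p arm is the strand usually taken as the active miRNA of each hairpin, and the 5p arm as its partner strand.

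The mature sequences are shown because they define the family and show how far reads of its members can be told apart (RefSeq, GRCm38.p6). Capitals mark the seed, bases 2 to 8, which directs target pairing.
miR-212-3p: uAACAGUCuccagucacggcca
miR-132-3p: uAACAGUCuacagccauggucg
miR-212-5p: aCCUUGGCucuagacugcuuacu
miR-132-5p: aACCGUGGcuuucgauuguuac
The 3p arms share the seed AACAGUC, whose match in a target is GACUGUU, and of the 1679 mature mouse names in the RefSeq table used here these 2 alone carry it. They are identical at 17 of 22 positions. Their first 9 bases are the same, and the later differences, counted from 1 at the 5′ end with the miR-132-3p base first, are A10C, C14U, U17C, U20C and G22A. The 5p arms have the seeds CCUUGGC in miR-212-5p and ACCGUGG in miR-132-5p, each found in 1 mature mouse name, and their longest common stretch is 5 bases. Both 3p arms begin with U and both 5p arms with A.

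The hairpins show where the arms sit, with the mature arms in capitals.
Mir212: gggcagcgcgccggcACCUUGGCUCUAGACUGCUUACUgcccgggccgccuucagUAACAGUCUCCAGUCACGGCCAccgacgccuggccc
Mir132: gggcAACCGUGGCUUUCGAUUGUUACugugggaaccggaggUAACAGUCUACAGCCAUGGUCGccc
Mir212 spans chr11:75173388-75173478 and Mir132 spans chr11:75173682-75173747, both on the plus strand of GRCm38.p6, with 203 bases between them. In GENCODE M21, which uses GRCm38, both lie in an intron (chr11:75172598-75173977) of the non-coding gene 1700016P03Rik on the same strand. The Mir212 hairpin is 91 bases long with 69.2% G and C, and the Mir132 hairpin is 66 bases long with 57.6%.

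The 6 libraries held from 5259528 to 6773829 counts, and 451 sequences had enough counts to be tested. Of the 11 kidney epithelium miRNAs fixed as markers, 10 had counts in every library. One library, C57BL/6 replicate 2, differed from its group. Its summed level of the 4 myeloid markers was 1200.3 CPM (TMM-scaled CPM, counts brought to a common library total), against 249 and 255 CPM in C57BL/6 replicates 1 and 3. Its 11 kidney epithelium markers summed to 73638 CPM, against 116916 and 115117 CPM. Results are therefore given with and without this library. In whole kidney, more cells of a type and more RNA per cell cannot be told apart.

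The cluster was scarce in kidney and did not pass the test for a strain difference in any of its tested members. Its 4 sequences together took 299, 236 and 204 counts in MRL/lpr replicates 1, 2 and 3, and 165, 784 and 242 counts in C57BL/6 replicates 1, 2 and 3. The summed level was 42.2, 45.8 and 33.8 CPM in the MRL/lpr libraries, against 33.8, 125.9 and 37.7 CPM in the C57BL/6 libraries. C57BL/6 replicate 2 was thus far above the other 5 libraries, which lay between 33.8 and 45.8 CPM, and the groups overlapped. By mean level over the 6 libraries the order was miR-212-3p (24.9 CPM, rank 230 of the 1542 sequences), miR-132-5p (15.6 CPM, rank 262), miR-212-5p (11.2 CPM, rank 280) and miR-132-3p (1.48 CPM, rank 465). Each of these means lay above every library but C57BL/6 replicate 2. Without that library the C57BL/6 means were 14.3, 11.9, 8.80 and 0.721 CPM in the same order. The MRL/lpr means were 19.3, 13.5, 6.98 and 0.870 CPM. Adapter ligation favours some ends over others, so the order of different sequences is less certain than the change of one sequence between libraries.

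Of the 4 members, 3 passed the filter on low counts: mmu-miR-212-3p, mmu-miR-212-5p and mmu-miR-132-5p. Among these 3 members tested, 0 passed at a Benjamini-Hochberg adjusted p under 0.05 (edgeR quasi-likelihood test), against 6.21% of all 451 sequences, and 1 had an unadjusted p under 0.05. DESeq2, which tested all 4, called 0 of them, against 8.39% of 608 sequences, with 1 at an unadjusted p under 0.05. limma-voom called 0 of the 3, against 4.66% of 451, with 0 at an unadjusted p under 0.05. The values of the groups overlapped for 3 of 3 tested members, while they did not overlap for 28.8% of the 451. The 3 log2 fold changes were all below 0, while 219 of the 451 were above 0 and 232 below. Without C57BL/6 replicate 2, 0 of 3 passed, against 11.5% of 470 sequences, with 2 above 0 and 1 below. The groups then still overlapped for 3 of 3, while they did not for 44.5% of the 470.

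mmu-miR-212-3p, one of the seed-sharing arms, was the most abundant member. It had 21.9, 21.2 and 14.7 CPM in MRL/lpr replicates 1, 2 and 3 (155, 109 and 89 counts). It had 13.3, 62.8 and 15.3 CPM in C57BL/6 replicates 1, 2 and 3 (65, 391 and 98 counts). One C57BL/6 library was the highest of all 6 and the other C57BL/6 libraries were among the lowest 3, so the groups overlapped. The means were 19.3 ± 3.94 CPM in MRL/lpr and 30.5 ± 28.0 CPM in C57BL/6 (SD, n = 3 each). The log2 fold change (MRL/lpr over C57BL/6) was -0.66 ± 0.63 (SE; 95% interval -2.17 to 0.84), with an edgeR adjusted p of 0.591. Without C57BL/6 replicate 2 it was 0.44 ± 0.27 (95% interval -0.16 to 1.05; edgeR adjusted p = 0.348), so its sign rests on that library. MRL/lpr replicate 3, at 14.7 CPM, then still lay below C57BL/6 replicate 3, at 15.3 CPM.

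mmu-miR-212-5p, the partner strand of the same hairpin, had the largest difference of the 3 tested members. It had 5.65, 8.35 and 6.95 CPM in the MRL/lpr libraries (40, 43 and 42 counts) and 10.4, 28.9 and 7.17 CPM in the C57BL/6 libraries (51, 180 and 46 counts). C57BL/6 replicates 1 and 2 lay above every MRL/lpr library, and C57BL/6 replicate 3 lay among the MRL/lpr values. The means were 6.98 ± 1.35 CPM in MRL/lpr and 15.5 ± 11.7 CPM in C57BL/6 (SD, n = 3 each), with a log2 fold change of -1.16 ± 0.50 (SE; 95% interval -2.28 to -0.03). The unadjusted p was 0.0452 and the edgeR adjusted p was 0.226. Among the alternatives run with all 6 libraries or with 1 left out, it passed only in the edgeR fit without a filter on low counts (log2 fold change -1.17, adjusted p = 0.0270), which called 4.59% of 1395 sequences. The fit without a filter pooled the spread almost wholly across sequences (SE 0.36 for miR-212-5p, against 0.50 with the filter). Its p therefore drew little on the spread of this sequence among libraries. Without a filter and without C57BL/6 replicate 2 the log2 fold change of miR-212-5p was -0.34, with an edgeR adjusted p of 0.698. In the filtered fit without that library it was -0.31 ± 0.32 (95% interval -1.03 to 0.41; edgeR adjusted p = 0.577), the only one of the 3 that kept its sign.

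mmu-miR-132-5p, the partner strand of the Mir132 hairpin, had 14.3, 14.9 and 11.3 CPM in the MRL/lpr libraries (101, 77 and 68 counts). It had 9.21, 29.4 and 14.6 CPM in the C57BL/6 libraries (45, 183 and 94 counts). The lowest and the highest library were both C57BL/6. The means were 13.5 ± 1.96 CPM in MRL/lpr and 17.7 ± 10.4 CPM in C57BL/6 (SD, n = 3 each). The log2 fold change was -0.40 ± 0.40 (SE; 95% interval -1.30 to 0.50; edgeR adjusted p = 0.602), and 0.18 ± 0.31 without C57BL/6 replicate 2 (95% interval -0.52 to 0.88; edgeR adjusted p = 0.752).

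mmu-miR-132-3p, the arm for which the cluster is best known, was the rarest member and did not pass the filter on low counts. It had 3, 7 and 5 counts in the MRL/lpr libraries and 4, 30 and 4 counts in the C57BL/6 libraries. These are 0.424, 1.36 and 0.828 CPM in MRL/lpr and 0.818, 4.82 and 0.623 CPM in C57BL/6. Every library but C57BL/6 replicate 2 had single-digit counts, where counting error alone is wide: the exact Poisson 95% interval for 4 counts runs from 1.09 to 10.2. Without a filter its log2 fold change was -1.31 ± 0.64 (SE, 95% interval -2.57 to -0.06), with an edgeR p of 0.0398 unadjusted and 0.366 adjusted. That fit pooled the spread almost wholly across sequences, so this p drew little on the spread of miR-132-3p itself. Without a filter and without C57BL/6 replicate 2 the log2 fold change was 0.23 ± 0.90 (95% interval -1.55 to 2.00, edgeR adjusted p = 0.926). No strain difference in this arm passed the threshold in these fits, and the sign of the fold change rested on C57BL/6 replicate 2.

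**Figure D1:**
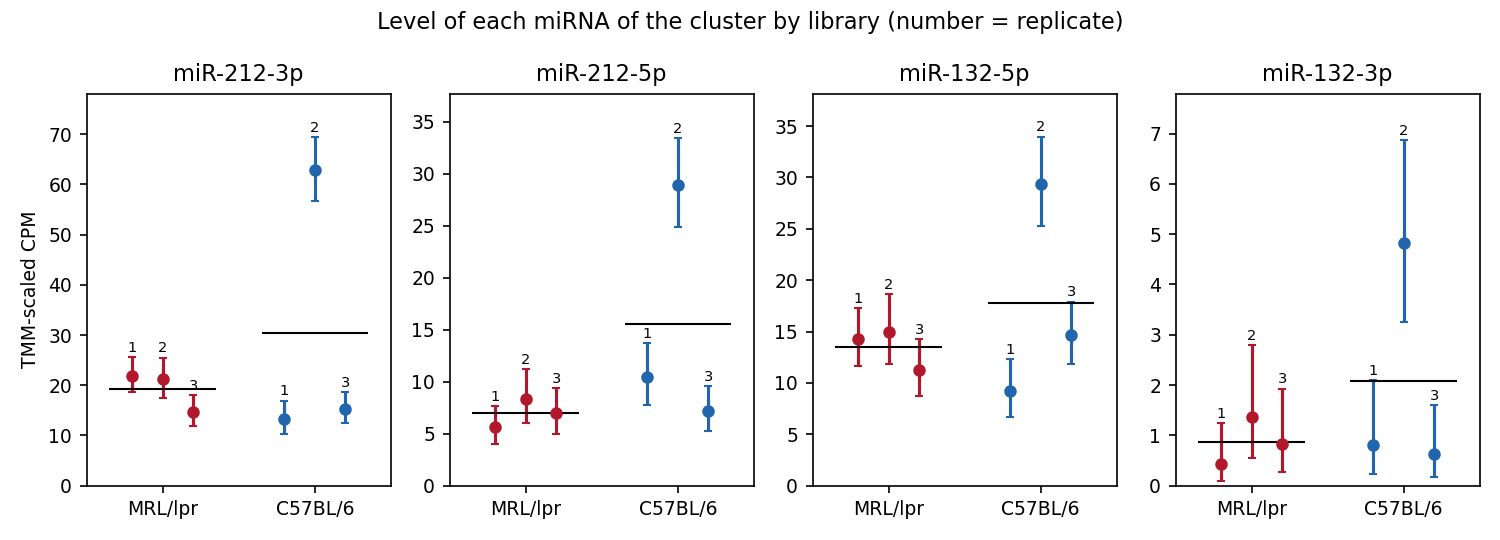
Level of each mature sequence (y axis, TMM-scaled CPM, with a separate scale in each panel) in the 3 MRL/lpr and 3 C57BL/6 libraries. Points are libraries numbered by replicate, vertical bars are exact Poisson 95% intervals of the count and horizontal lines are group means. C57BL/6 replicate 2 is the highest library in all 4 panels, at 62.8 CPM for miR-212-3p.

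**Figure D2:**
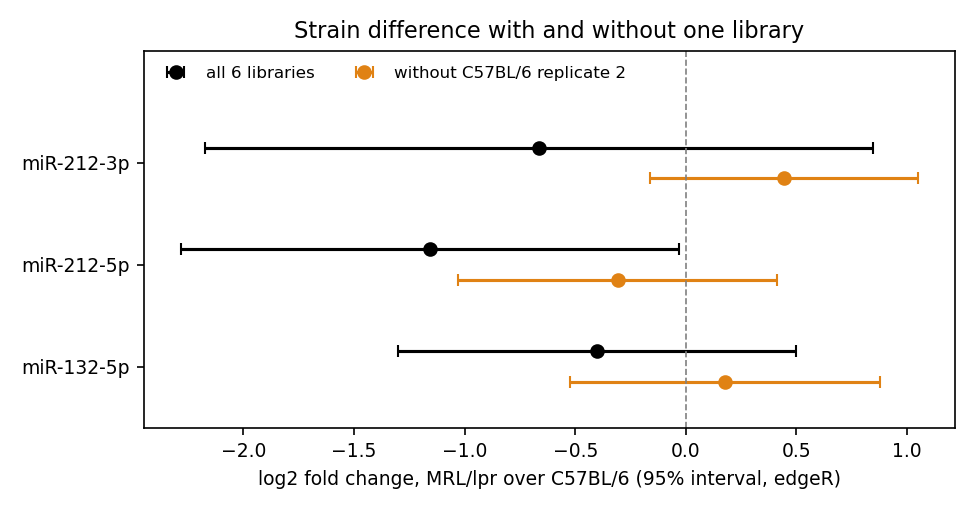
Fitted log2 fold change (x axis, MRL/lpr over C57BL/6) of the 3 tested members, with 95% intervals from edgeR that are not adjusted for multiple tests. Black points use all 6 libraries and orange points leave out C57BL/6 replicate 2. The point for miR-212-3p lies at -0.66 with all libraries and at 0.44 without that library.

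All 4 sequences were highest in C57BL/6 replicate 2. Relative to the mean of C57BL/6 replicates 1 and 3, its level was 6.69 times as high for miR-132-3p, 4.40 times for miR-212-3p, 3.29 times for miR-212-5p and 2.46 times for miR-132-5p. The Poisson intervals, which cover counting error only and not the spread between libraries, lay apart. The lower 95% bounds in C57BL/6 replicate 2 were 56.7 CPM for miR-212-3p, 24.9 for miR-212-5p, 25.3 for miR-132-5p and 3.25 for miR-132-3p. The highest upper bounds in the other 5 libraries were 25.6, 13.7, 18.7 and 2.80 CPM for the same sequences. Of the 3 tested members, 3 were higher in this library than in C57BL/6 replicates 1 and 3, against 172 of all 451 tested (38.1%). On the log2 scale after adding 1 CPM, miR-212-3p had the ninth highest ratio of the 451, at 2.06, and miR-212-5p the twelfth, at 1.61. miR-132-5p had rank 27, at 1.23, and the median of the 451 was -0.05.

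Markers of immune cells were also high in that library. Of the tested myeloid markers 3 of 3 exceeded both of the other C57BL/6 values, with a median log2 ratio of 2.15. So did 6 of 7 leukocyte markers, with a median of 1.34. Of the kidney epithelium markers 1 of 10 was higher, with a median of -0.41. Over all 451 tested the share was 38.1%. The myeloid and kidney epithelium sums were used above to set this library apart, so the counts of those lists restate that choice. The granulocyte miRNA miR-223-3p had 1019.1 CPM in C57BL/6 replicate 2, against 221 and 235 CPM in replicates 1 and 3. miR-511-3p, a macrophage miRNA, had 153 CPM there, against 21.3 and 15.3 CPM. All 7 leukocyte and 3 of the 4 myeloid markers had counts in every library. The part of these cells in the level of the cluster was not tested.

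**Figure D3:**
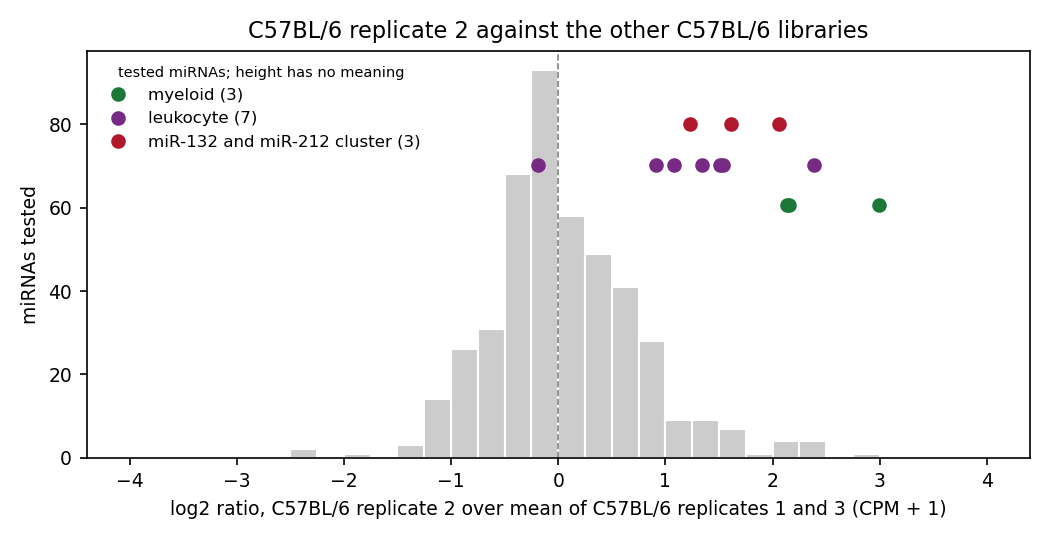
Histogram of the log2 ratio of C57BL/6 replicate 2 to the mean of C57BL/6 replicates 1 and 3 (x axis, after adding 1 CPM) over the 451 tested miRNAs (y axis, number of miRNAs). Of the 451, miR-199b-3p (-4.99) and let-7c-2-3p (-7.46) lie beyond the left end of the bars and are not drawn. Coloured points mark tested members of the cluster and of the leukocyte and myeloid lists, and their height has no meaning. The 3 cluster members lie at 1.23, 1.61 and 2.06, to the right of most miRNAs.

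The same markers were compared between strains. The myeloid markers summed to 440.3, 409 and 378 CPM in MRL/lpr replicates 1, 2 and 3, which lay between C57BL/6 replicate 2 and the other C57BL/6 libraries. Of the 3 tested 0 passed (edgeR), against 6.21% of all 451, with 3 below 0 and a median log2 fold change of -0.70. With C57BL/6 replicate 2 left out, 1 of 3 was higher (miR-511-3p, log2 fold change 0.93, edgeR adjusted p = 0.0295), against 11.5% of all 470. All 3 were then above 0, with a median of 0.71. The leukocyte markers summed to between 26537 and 28633 CPM in MRL/lpr, against 28747 to 48672 CPM in C57BL/6. Most of that sum was miR-181a-5p (mean 20091 CPM over all libraries) and miR-146a-5p (9906 CPM), so it says little about the other markers. Single members did not follow that sum: 5 of 7 had a log2 fold change above 0, the median was 0.24 and 1 of 7 passed, against 6.21% of all 451. With C57BL/6 replicate 2 left out, 6 of 7 were above 0, with a median of 0.74, and 4 of 7 were higher, against 11.5% of all 470. These were miR-142a-3p (2.21), miR-142a-5p (1.95), miR-155-5p (1.71) and miR-146a-5p (0.74). C57BL/6 replicate 2 was high in these lists, so leaving it out raises them in MRL/lpr by construction. Of the 10 kidney epithelium markers tested 2 were higher in MRL/lpr, against 6.21% of all 451 called, with a median of 0.14. They were miR-204-5p (log2 fold change 1.52 ± 0.18 SE, edgeR adjusted p = 0.00141) and miR-802-5p (1.75 ± 0.29 SE, edgeR adjusted p = 0.00793). Without C57BL/6 replicate 2 the same number passed, against 11.5% of all 470, with a median of 0.02. miR-155-5p, a miRNA switched on when lymphocytes and macrophages are activated, rose in MRL/lpr, with 174, 145 and 200.1 CPM against 57.1, 102 and 50.9 CPM in C57BL/6 replicates 1, 2 and 3 (log2 fold change 1.30 ± 0.30 SE, edgeR adjusted p = 0.0331). The neuronal and neuroendocrine markers, fixed because the cluster is best known from neurons, summed to between 1349 and 1567 CPM in MRL/lpr, against 1638 to 1779 CPM in C57BL/6, with 1 of 5 lower (miR-375-3p) and 0 higher, against 6.21% of all 451 called. miR-375-3p had 318 ± 37.5 CPM in MRL/lpr and 727 ± 83.02 CPM in C57BL/6 (SD, n = 3 each), while the other 4 log2 fold changes were above 0 and the median of the 5 was 0.085. In miR-155-5p the groups did not overlap, whereas in each cluster member they did.

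The hairpins differed in which arm was counted. In the Mir212 hairpin the 3p arm held most counts, with 79.5%, 71.7% and 67.9% of both arms in MRL/lpr replicates 1, 2 and 3, and 56.0%, 68.5% and 68.1% in C57BL/6 replicates 1, 2 and 3. In the Mir132 hairpin the 3p arm held 2.88%, 8.33% and 6.85% in MRL/lpr and 8.16%, 14.1% and 4.08% in C57BL/6. The order was therefore the same in every library, with Mir212 mostly 3p and Mir132 mostly 5p. The widest Wilson 95% interval for Mir132 was 3.22% to 19.2%, on 49 counts, and the lowest bound for Mir212 was 46.9%, on 116 counts. Of 217 hairpins with both arms in the table and at least 1 arm tested, 129 had more 5p and 88 more 3p. By the size of the 5p excess Mir132 had rank 79 and Mir212 rank 138. The sources used here do not say how the authors assigned reads that match more than one entry, so the low count of miR-132-3p is a property of the table and was not checked on reads.

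Arm balance did not pass a test between strains in either hairpin. The 3p share averaged 73.0% ± 5.89 in MRL/lpr and 64.2% ± 7.06 in C57BL/6 for Mir212, and 6.02% ± 2.82 in MRL/lpr and 8.78% ± 5.03 in C57BL/6 for Mir132 (SD, n = 3 each). On the log2 scale of 5p over 3p, after adding 1 CPM to each, the difference (MRL/lpr minus C57BL/6) was -0.53 ± 0.32 for Mir212 (SE; 95% interval -1.26 to 0.19; limma adjusted p = 0.460). For Mir132 it was 0.26 ± 0.33 (95% interval -0.49 to 1.01; limma adjusted p = 0.759). The same test called 0.461% of the 217 hairpins.

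**Figure D4:**
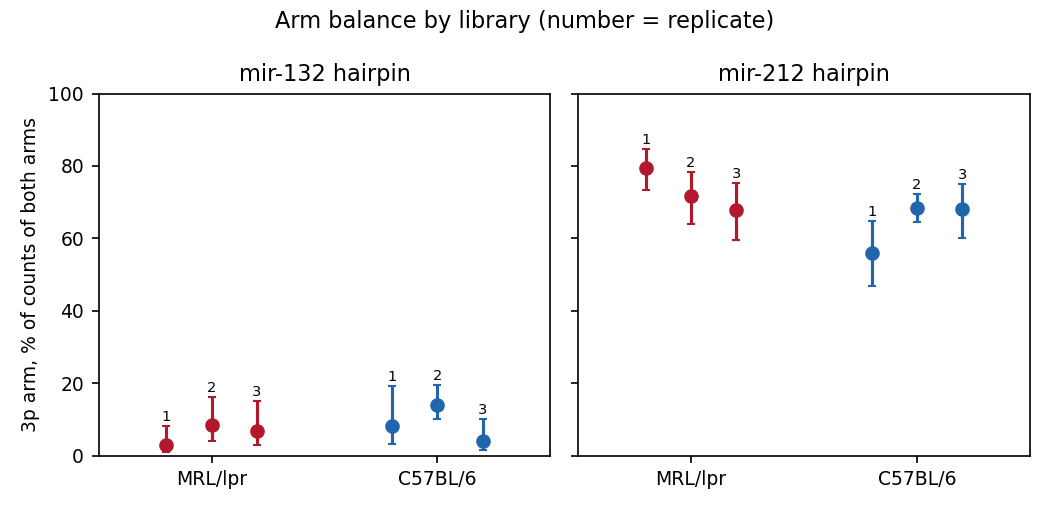
Share of the 3p arm in the counts of both arms (y axis, percent) for each hairpin in the 3 MRL/lpr and 3 C57BL/6 libraries. Points are libraries numbered by replicate, and bars are Wilson 95% intervals that cover counting error only. The 3p share of the Mir132 hairpin stays at or below 14.1% and that of the Mir212 hairpin at or above 56.0% in every library.

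The ratio between the hairpins was also followed within each library. miR-212-3p had 51.7, 15.6 and 17.8 times the counts of miR-132-3p in MRL/lpr replicates 1, 2 and 3, and 16.2, 13.0 and 24.5 times in C57BL/6 replicates 1, 2 and 3. The value of 51.7 rests on 3 counts of miR-132-3p. Among the 5p arms, miR-132-5p had 2.53, 1.79 and 1.62 times the counts of miR-212-5p in MRL/lpr and 0.882, 1.02 and 2.04 times in C57BL/6. The log2 ratio of the 3p arms, miR-132-3p over miR-212-3p after adding 1 CPM, averaged -3.45 ± 0.49 in MRL/lpr and -3.25 ± 0.25 in C57BL/6 (SD, n = 3 each; exact two-sided permutation p = 0.7). That of the 5p arms, miR-132-5p over miR-212-5p, averaged 0.86 ± 0.30 in MRL/lpr and 0.27 ± 0.59 in C57BL/6 (exact two-sided permutation p = 0.3, adjusted over the 2 ratios 0.6). With 3 against 3 libraries the smallest p this test allows is 0.1. miR-132-3p lay below the added 1 CPM in every library but C57BL/6 replicate 2 and MRL/lpr replicate 2. The added 1 CPM therefore weighs on the 3p ratio. Among the C57BL/6 libraries replicate 2 had the lowest log2 ratio of the 3p arms, -3.45, against -2.98 and -3.33. By counts, miR-132-3p was highest there relative to miR-212-3p.

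The 4 sequences were also compared with each other across libraries. On the log2(CPM + 1) scale Pearson's r between pairs of members ran from 0.73, for miR-132-5p and miR-212-5p, to 0.96, for miR-132-3p and miR-212-5p (n = 6). In the 5 libraries without C57BL/6 replicate 2 it ran from -0.62, for miR-132-5p and miR-212-5p, to 0.76, for miR-132-5p and miR-212-3p. These are descriptions of libraries of similar depth, and those with miR-132-3p rest on few counts.

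The miRNAs most like miR-212-3p across the 6 libraries, among 156 tested sequences of at least 100 CPM, were miR-223-3p (r = 0.97), miR-214-3p (r = 0.97), miR-146a-5p (r = 0.94), miR-15b-5p (r = 0.93) and miR-199a-5p (r = 0.90). The median r over the 156 was -0.04. miR-223-3p is a granulocyte miRNA, miR-146a-5p is induced by NF-κB in immune cells, and miR-214-3p and miR-199a-5p come from one mesenchymal transcript. miR-214-3p had 119.6, 98.6 and 78.8 CPM in MRL/lpr replicates 1, 2 and 3, and 75.3, 183 and 76.5 CPM in C57BL/6 replicates 1, 2 and 3. Its order over libraries was that of miR-212-3p except that C57BL/6 replicate 3 and MRL/lpr replicate 3 changed places. Without C57BL/6 replicate 2 (n = 5), r was 0.94 for miR-214-3p, 0.85 for miR-223-3p, 0.72 for miR-199a-5p, 0.61 for miR-146a-5p and 0.57 for miR-15b-5p. These 5 were picked as the highest of 156 with that library included. How common such values are among the 156 without it was not computed.

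For miR-132-3p the 5 most like it were miR-195a-5p (r = 0.95), miR-181d-5p (r = 0.93), miR-183-5p (r = 0.90), miR-100-5p (r = 0.87) and miR-146a-5p (r = 0.87), against a median of 0.01. Without C57BL/6 replicate 2 these were 0.61, 0.48, -0.22, -0.07 and 0.03 in the same order. In 4 of the 5, then, r was below 0.5 without that library.

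**Figure D5:**
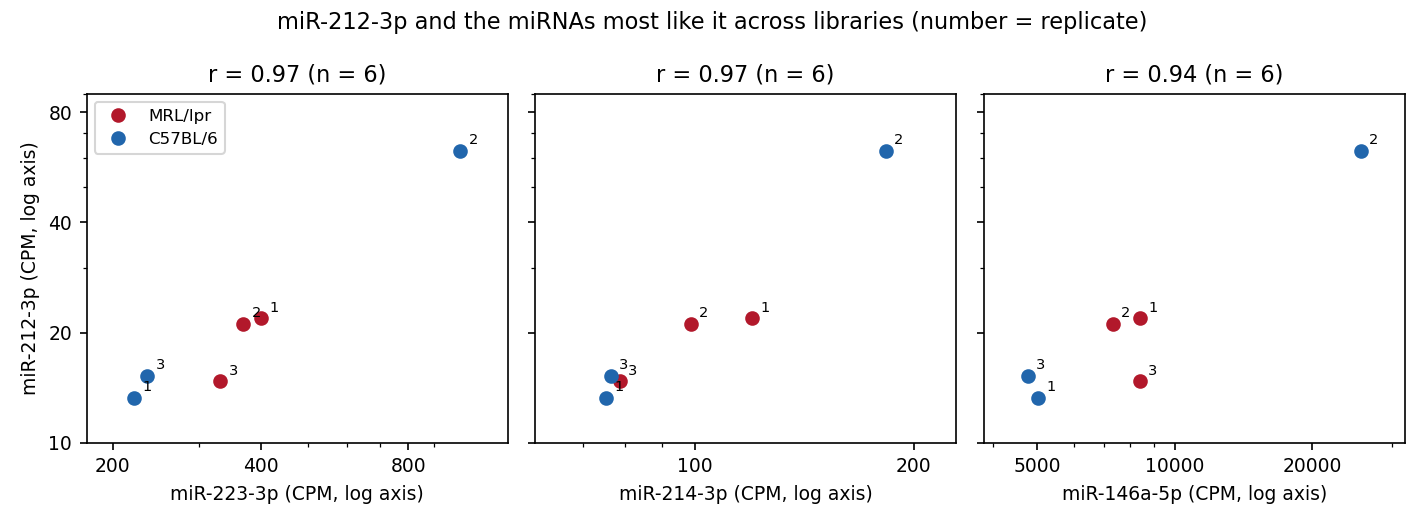
miR-212-3p (y axis, CPM, log axis) against miR-223-3p, miR-214-3p and miR-146a-5p (x axes, CPM, log axes) in the 6 libraries, numbered by replicate, with Pearson's r on the log2(CPM + 1) scale. C57BL/6 replicate 2 lies at the upper right of every panel, with 62.8 CPM of miR-212-3p, and the other 5 libraries lie at 21.9 CPM or below.

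Other miRNAs tied to kidney fibrosis were set beside the cluster. Of 16 listed as promoting fibrosis 11 were tested; 1 rose and 0 fell, with a median log2 fold change of -0.07, against -0.03 over all 451, of which 19 rose and 9 fell (6.21% in all). The 1 was miR-155-5p, which is also a leukocyte marker. Of 20 listed as opposing fibrosis, among them the miR-29, miR-200 and miR-30 families, all 20 were tested. Of these 0 passed in either direction (edgeR), with a median of 0.16. Without C57BL/6 replicate 2, 0 of these 20 passed, with 11 above 0, 9 below and a median of 0.084. Their most abundant members were miR-26a-5p, at 63663 ± 6257 CPM in MRL/lpr and 73705 ± 7714 CPM in C57BL/6, and let-7c-5p, at 46406 ± 12123 CPM in MRL/lpr and 58511 ± 2311 CPM in C57BL/6 (SD, n = 3 each). Without C57BL/6 replicate 2, 3 of the 11 promoting miRNAs were higher in MRL/lpr and none was lower, with a median of 0.25; over all 470 sequences 42 were higher and 12 lower (11.5%), with a median of -0.00024. Besides miR-155-5p these were miR-21a-5p (log2 fold change 0.92 ± 0.16 SE, edgeR adjusted p = 0.00592) and miR-21a-3p (2.03 ± 0.36 SE, edgeR adjusted p = 0.00610), named after their values were seen. With all libraries miR-21a-5p had a log2 fold change of 0.25 ± 0.43 and an edgeR adjusted p of 0.766. miR-21a-3p did not pass with all libraries either. Its log2 ratio of C57BL/6 replicate 2 to the mean of C57BL/6 replicates 1 and 3 was 2.33, rank 3 of the 451. Of the promoting list 9 of 11 were higher in C57BL/6 replicate 2 than in C57BL/6 replicates 1 and 3, so leaving it out raises the list in MRL/lpr by construction.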

How the data were processed

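Small RNA libraries were made from total kidney RNA by adapter ligation, PCR and gel size selection, then sequenced as DNA nanoballs, per the labels' protocols. The authors deposited 1 table of whole-number counts for mature miRNAs, not normalized. Bowtie2, DESeq2 and the build GRCm38.p6 are listed without role or tool version, per the submitters' processing notes. The sources used here do not give the miRNA annotation, the treatment of reads with several matches, strand or molecular identifiers. Poisson and Wilson intervals cover counting error only, while the edgeR and limma intervals draw on the spread between libraries. Each column name gives a group, an age and a replicate number, which tied it to 1 sample.

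The members and lists were chosen with earlier results of these data known. R 4.3.3 and edgeR 4.0.16 were used for the strain test (filterByExpr, minimum count 10 and minimum total 15; TMM; robust quasi-likelihood fit; group alone; Benjamini-Hochberg over all tested, threshold 0.05). Standard errors come from the coefficient and its F statistic. Arm balance was tested with limma 3.58.1 over all hairpins, with 1 CPM added. The scripts were tested on simulated counts. Alternatives were other scalings and filters, DESeq2 1.42.0, limma-voom, no robust dispersion, a replicate block, other pseudocounts and leaving out each library. Named miRNAs were the 4 members, the 5 most correlated with each 3p arm among tested miRNAs of at least 100 CPM, and, per list, those past the threshold (4 at most) or, with none, the 2 of highest mean.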

Additional observations from a re-analysis of the deposited data

How the results depend on the processing

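Under the other scalings, filters, tests and the block, miR-212-3p, miR-212-5p and miR-132-5p kept log2 fold changes below 0, and miR-212-3p and miR-132-5p never passed. Leaving out 1 library each gave log2 fold changes from -1.06 to 0.44 for miR-212-3p, from -0.75 to 0.18 for miR-132-5p and from -1.54 to -0.31 for miR-212-5p; values above 0 came without C57BL/6 replicate 2. miR-212-5p passed without a filter (-1.17), where the spread was pooled almost wholly across sequences. It had no value at 10 CPM in 3 libraries. With no filter and without C57BL/6 replicate 2, chosen after seeing the data, log2 fold changes were 0.23 for miR-132-3p, 0.15 for miR-132-5p and 0.42 for miR-212-3p. The ratio of the 3p arms turned from -0.20 to 0.060 with a pseudocount of 5 CPM and ran from -0.38 to 0.073 with 1 library left out. Arm balance kept its sign in every alternative run, but the size of the Mir132 difference did not hold. It was 0.26 in the main run, 0.019 with a pseudocount of 5 CPM and 0.52 without C57BL/6 replicate 3. Mir132 had no value with both arms at 10 CPM. The number of sequences past the threshold, 28, was 64 without a filter, 51 with DESeq2, 86 with no filter and without C57BL/6 replicate 2, and 5 to 54 with 1 library left out. Correlations of deviations between samples of the same replicate number were -0.37, 0.034 and -0.37, against -0.18 to 0.39 between other numbers. With so few libraries these cannot exclude pairing. With the replicate block the number of sequences past the threshold was 13 and no member passed. The cause of these changes was not tested. The low counts of miR-132-3p limit what can be seen of it.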
